A study of Mus musculus with 11 samples.

Results

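The unfolded protein response and the integrated stress response were followed through 34 genes in sensory neurons of the face and mouth, compared between mice bearing MOC1 tumours and sham mice. The members were taken by name and cover the chaperones of the endoplasmic reticulum (ER), the degradation machinery of that organelle, its stress sensors and the genes around the transcription factor Atf4. All 34 names were found among the 55401 genes listed in each deposited file, and all 34 were among the 16817 genes that passed the filter on low counts. Ddit3 is listed under a pair of identifiers. The one used, ENSMUSG00000025408, held between 49 and 312 counts per library. The other held 0 in every library and lies within the span of the first on the same chromosome. Where exons of both overlap on the same strand, reads cannot be assigned to either. The counts and levels of Ddit3 would lack such reads.

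The tested mice carried MOC1, a mouse line of oral squamous cell carcinoma, and the controls were sham mice. Neurons of the trigeminal ganglion that had taken up the tracer DiI, which travels backwards along axons from the tissue they innervate, were sorted by fluorescence from both ganglia, with a gate set on naive mice and on sham mice given DiI. Poly(A)-selected RNA of 6 MOC1 libraries (3 female, 3 male) and 5 sham libraries (3 female, 2 male) was sequenced. Strain, age and time after tumour placement are not given in the labels, and the labels do not say whether a library is 1 animal or a pool. Every p-value below therefore sets a difference against the spread between these libraries, which may be technical in part.

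The ER folds secreted and membrane proteins, and 3 membrane proteins watch over its load of unfolded chains. ATF6 is cut into a transcription factor, IRE1 (gene Ern1) splices the messenger RNA of Xbp1 into the form that encodes the active factor, and PERK (gene Eif2ak3) phosphorylates the translation initiation factor eIF2. ATF6 and spliced XBP1 induce chaperones and degradation genes, while phosphorylated eIF2 slows translation in general and favours that of ATF4, which induces genes of amino acid supply and, with CHOP (gene Ddit3), of apoptosis and recovery. In sensory neurons this machinery serves a large output of channels, receptors and peptides. Counts per gene show neither the cutting of ATF6, nor the splicing of Xbp1, nor the phosphorylation of eIF2.

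The sorted libraries held neuronal RNA throughout, together with glial RNA at levels that differed between the arms. The 20 pan-neuronal genes summed to 15424 to 17465 CPM (counts per 1000000 counts in genes) in MOC1 libraries and 12090 to 15001 CPM in sham libraries. By edgeR 10 of the 20 were called higher in MOC1 and 0 lower. The 14 satellite glia markers, whose cells enclose each sensory neuron body, summed to 3640 to 6414 CPM in MOC1 libraries and 9468 to 11662 CPM in sham libraries, and 11 of the 14 were lower in MOC1 by edgeR. Immediate-early genes such as Fos and Egr1, which neurons and glia switch on within minutes of stimulation or tissue handling, summed to 1184 to 1833 CPM in MOC1 and 3250 to 5312 CPM in sham libraries, with 11 of 13 called lower. Each of these 3 sums, and those of Schwann cells and fibroblasts, separated the arms without overlap (adjusted p = 0.00563 each, exact permutation test over 13 measures, where 0.00216 is the smallest unadjusted p possible). B and plasma cell markers were lower in MOC1, at 6.11 ± 1.75 CPM against 13.2 ± 5.05 CPM in sham (adjusted p = 0.0234, same exact test), as were the mitochondrial share of counts, 2.89 ± 0.311% against 3.65 ± 0.615% (0.0241), and the counts in genes (0.0317), and these ranges overlapped. Keratinocyte and tumour markers ranged over 2.40 to 10.3 CPM in MOC1 libraries, against 4.52 to 7.43 CPM in sham libraries, with Krt5 and Krt8 at 0 in all 11. The part of these differences in the results below was not tested further than by the alternatives named with them, and in bulk RNA fewer cells of a type and less RNA per cell cannot be told apart. Depth ranged from 10757426 to 15739544 counts in genes in MOC1 and 15510643 to 16703797 in sham libraries. MOC1 female 3 and MOC1 male 2 had the fewest genes detected, 14180 and 15327, against 16043 or more in the others, and sham female 1 held 1181 CPM of endothelial markers, against at most 189.9 CPM elsewhere.

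Most members had slightly lower levels in MOC1 libraries, and few of the differences passed the threshold after adjustment over all genes. Of the 34 members, 5 fell (Ppp1r15a, Hspa5, Hsp90b1, Calr and Ddit4), none rose and 29 were not called at an adjusted p under 0.05 in edgeR's quasi-likelihood test. Lower calls took 14.7% of the members, where 4.28% of all genes tested were called lower. Higher calls took 0 members, where 2.34% of all genes were called higher. The log2 fold change of MOC1 over sham lay below 0 in 26 members and above 0 in 8, where 52.7% of all genes lay below 0. Its median was -0.16 over the members and -0.03 over all genes. The 6 MOC1 libraries all lay below the 5 sham libraries for 3 members (4.18% of all genes did so), and all above them for 1 member, Asns (2.15% of all genes). At an unadjusted p under 0.05 the count was 13 of 34 members, against 18.5% of all genes.

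The count of 5 changed with the libraries used, with the scaling and with a glial covariate. It was 4 without MOC1 female 1, MOC1 female 2 or sham female 1, and 6 without MOC1 female 3. Among all genes 685, 566, 624 and 740 were called lower in those fits in turn, against 719 with every library. Without MOC1 male 1, 2 or 3 the counts over all genes were 656, 702 and 628. Without sham male 1 or 3, which leaves a lone sham male library, 18479 and 18367 genes were tested, against 16817. Without any one of the 3 MOC1 male or the 2 sham male libraries 3 members were called, namely Ppp1r15a, Hspa5 and Hsp90b1, which were called whichever library was left out. Scaling the libraries to the pan-neuronal genes in place of TMM, a scaling to the bulk of all genes, moved the median of all genes to -0.31 and that of the members to -0.44. Of these 20 reference genes, 10 were themselves called higher in MOC1 under TMM. Under that scaling 16 members were called lower, where 12.4% of all genes were lower (11.5% in females) and 0.161% higher (0.0654% in females). With the satellite glia sum as a covariate no member and no gene was called, at adjusted p-values of 0.677 for Ppp1r15a and 0.801 for Hspa5. In that fit 1166 genes, 4 of them members, had an unadjusted p under 0.05. The log2 fold changes of the 5 members lay between -1.22 and -0.29. Their edgeR adjusted p-values ran from 0.6245 for Ddit4 to 0.801 for Hspa5, and no direction is read from that fit. Since the glial sum separates the arms completely, tumour and glial share cannot be told apart there.

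**Figure D1:**
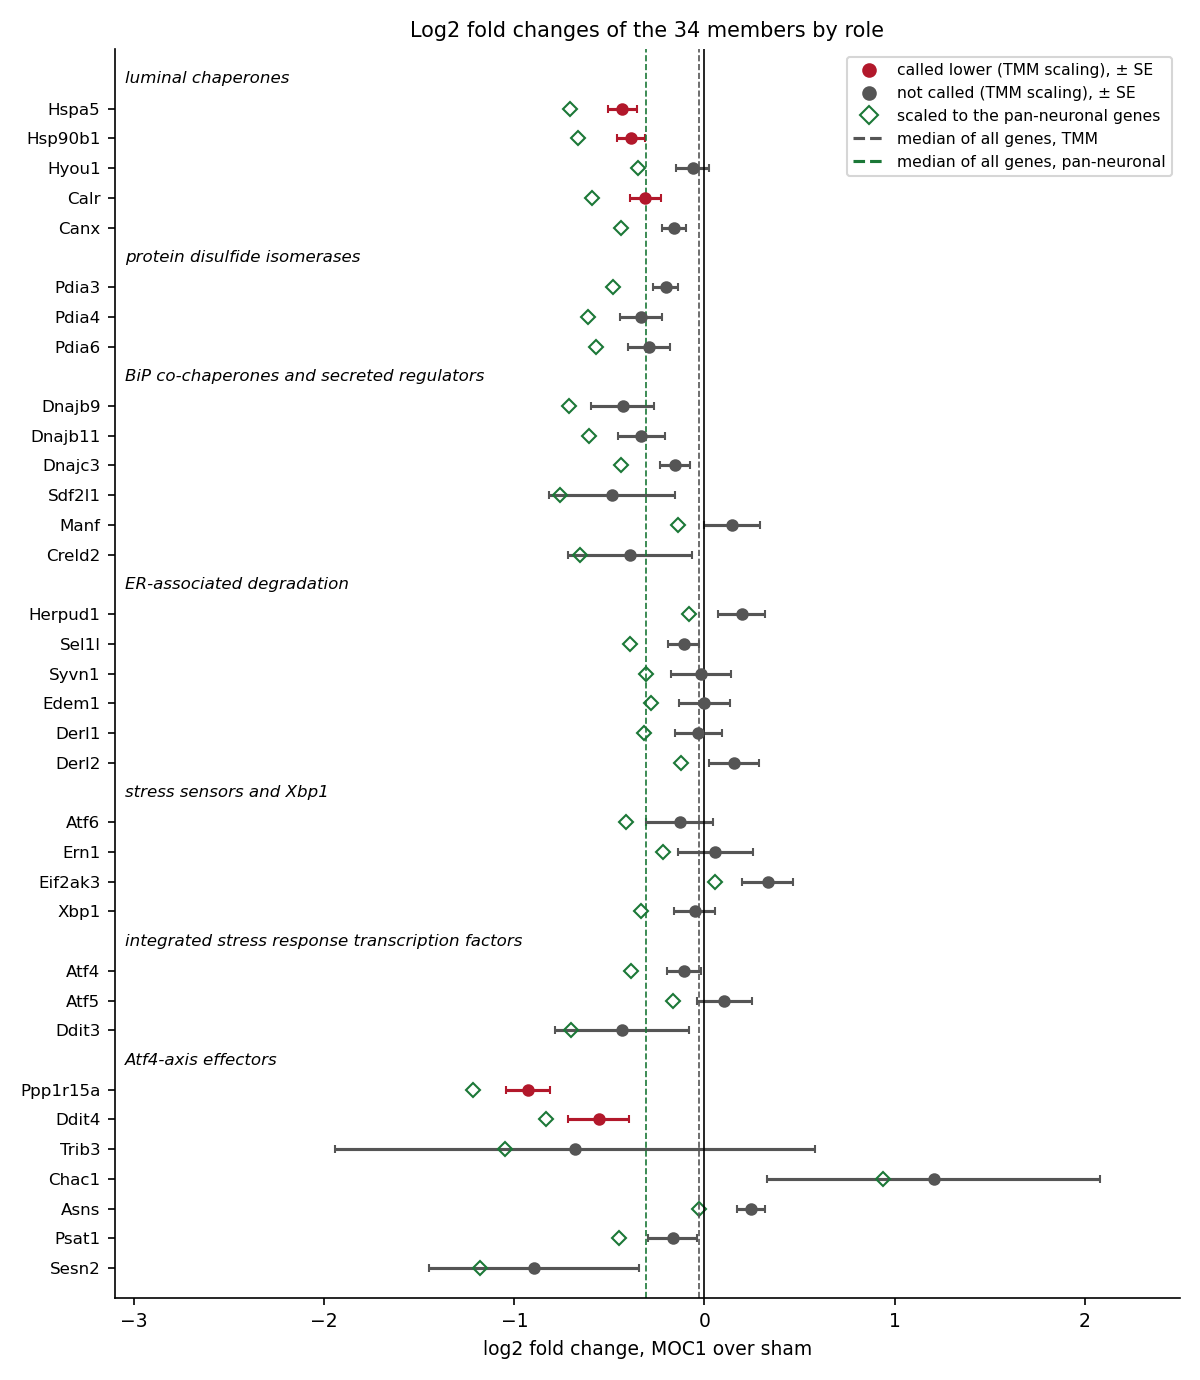
Log2 fold change of MOC1 over sham for each of the 34 members, grouped by role (circles with SE as bars, TMM scaling, n = 6 MOC1 and 5 sham libraries), with the value under pan-neuronal scaling as an open diamond and the medians of all genes as dashed lines. The 5 members called lower are in red, and under pan-neuronal scaling Manf, Herpud1, Derl2, Ern1, Atf5 and Asns lie below 0 in place of above it.

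The chaperones of the ER lumen held 3 of the 5 lower members. Hspa5 encodes BiP, the Hsp70 chaperone that binds unfolded chains and keeps the sensors inactive. Hspa5 had a lowest, median and highest level of 423, 492 and 543 CPM (after TMM) in MOC1 libraries, against 641, 823, 672, 649.6 and 535 CPM in the 3 female and 2 male sham libraries. Sham male 3, at 535 CPM, was the only sham library inside the MOC1 range, and sham female 2 was the highest of all. The MOC1 mean was 484 ± 49.5 CPM (SD, n = 6) against a sham mean of 664 ± 103 CPM (SD, n = 5), with a log2 fold change of -0.43 ± 0.08 (SE, edgeR adjusted p = 0.00137), a change of -25.8% in level.

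Hsp90b1 encodes GRP94, the Hsp90 chaperone of the ER. Its lowest, median and highest levels were 425, 500.0 and 554 CPM in MOC1 libraries, against 599, 776, 630.2, 637 and 641 CPM in sham libraries. All MOC1 libraries lay below all sham libraries, and sham female 2 again stood highest. The log2 fold change was -0.39 ± 0.07 (edgeR adjusted p = 0.00249), with means of 498 ± 48.4 CPM in MOC1 and 657 ± 68.7 CPM in sham (SD, n = 6 and 5).

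Calr encodes calreticulin, the soluble chaperone that holds sugar-tagged chains in a cycle of folding. Levels in MOC1 libraries had a lowest, median and highest value of 306, 334 and 404 CPM, against 398, 414, 379, 473 and 454 CPM in sham libraries. The arms overlapped through MOC1 female 3, at 404 CPM, which exceeded sham female 1 and sham female 3. The log2 fold change was -0.31 ± 0.08 (edgeR adjusted p = 0.0240). The call was lost without MOC1 female 2 (adjusted p = 0.0566), without MOC1 male 1, 2 or 3 (0.0572, 0.0515 and 0.0667) and without sham male 1 or 3 (0.104 and 0.0870).

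Canx, the membrane-bound partner of calreticulin, averaged 659 ± 46.9 CPM in MOC1 against 738 ± 24.0 CPM in sham, a log2 fold change of -0.16 ± 0.06 (edgeR adjusted p = 0.163). Hyou1, which exchanges the nucleotide of BiP, averaged 106 ± 10.5 CPM in MOC1 against 110.1 ± 7.11 CPM in sham (-0.06 ± 0.09). Neither was called, although both were lower under pan-neuronal scaling (adjusted p = 0.000655 for Canx and 0.0375 for Hyou1). Summed over the 5 luminal chaperones, MOC1 libraries held 1885 to 2295 CPM and sham libraries 2499 to 2816 CPM, without overlap.

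**Figure D2:**
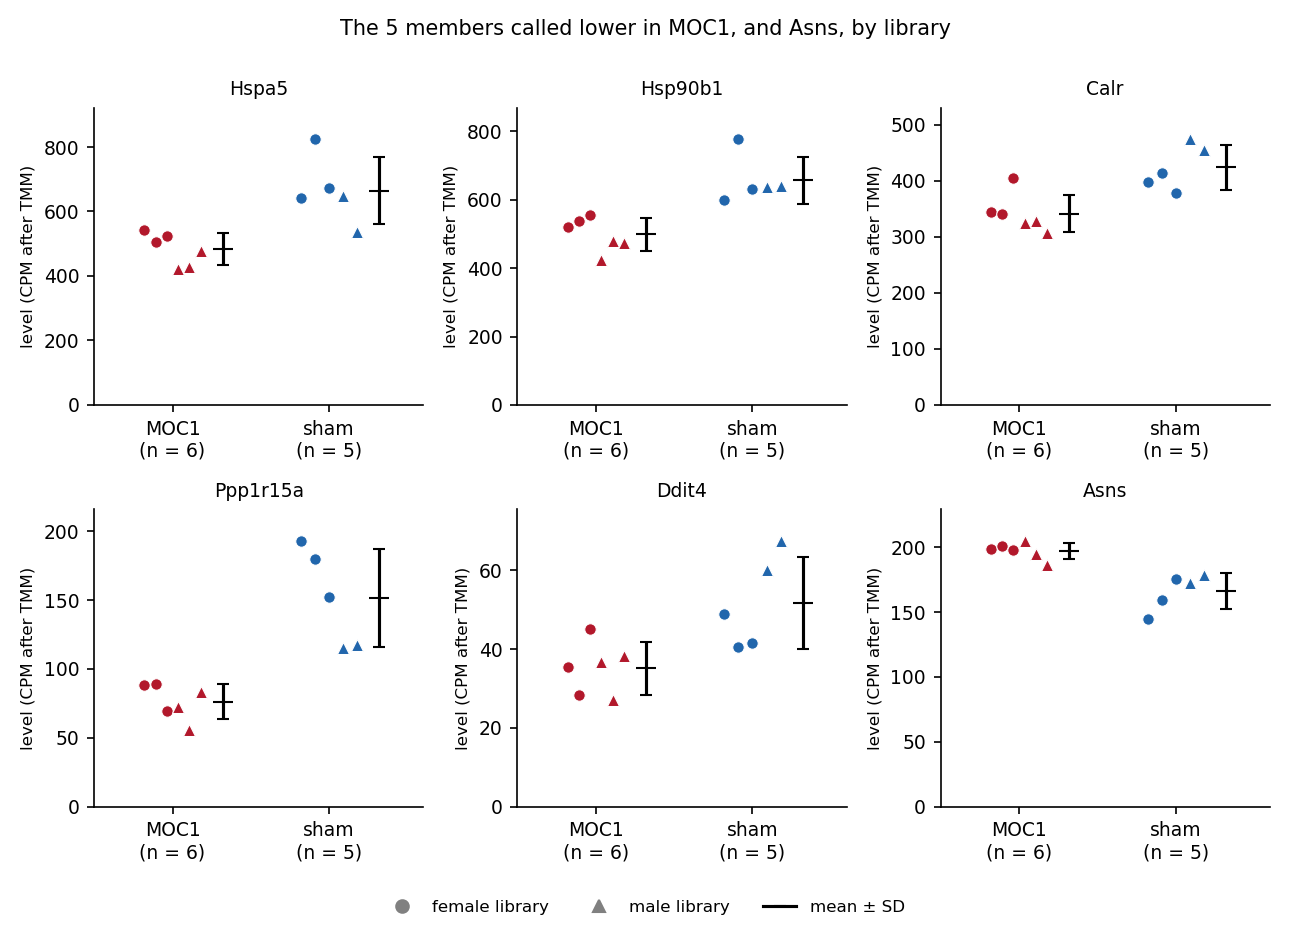
Level in CPM after TMM of the 5 members called lower and of Asns in each library (circles female, triangles male, MOC1 left of sham, black bars mean ± SD, n = 6 and 5). Hsp90b1 and Ppp1r15a separate the arms with MOC1 below sham and Asns with MOC1 above sham, while Hspa5, Calr and Ddit4 overlap; under pan-neuronal scaling the log2 fold change of Asns is -0.03.

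The promoters of these chaperones are shown because ATF6 and XBP1 act on them through a known element, the ER stress element, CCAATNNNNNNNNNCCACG. RefSeq promoter windows, 250 bases before to 50 after a start on GRCm38.p6, were given for 30 of the 34 members, and both strands were searched for exact matches. The element lay before the start in 8 of the 30 members, against 35 of 27025 genes with a window (0.130%). Read in the direction of the element, with the bases that it fixes in capitals, the copies in these 8 members were as follows.
Hspa5: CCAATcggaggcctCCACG
Hsp90b1, first copy: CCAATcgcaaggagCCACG
Hsp90b1, second copy: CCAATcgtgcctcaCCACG
Calr: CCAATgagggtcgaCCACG
Canx: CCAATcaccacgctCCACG
Pdia6: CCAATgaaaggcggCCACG
Dnajc3: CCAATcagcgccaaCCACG
Creld2: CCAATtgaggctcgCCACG
Syvn1: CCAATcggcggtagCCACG

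Counted back from the start, where the last base before it is -1, the copies spanned -65 to -47 in Hspa5, -212 to -194 and -107 to -89 in Hsp90b1, and -162 to -144 in Calr. The second copy of Hsp90b1 and the copies of Calr and Creld2 run on the strand opposite to the gene. All 8 members had a log2 fold change below 0, between -0.43 and -0.02, with 3 called lower. Of the 22 members with a window and no copy, 15 lay below 0 and 2 were called lower. Over all genes tested 52.7% lay below 0 and 4.28% were called lower. These counts are descriptions without a test, since the members were gathered in part as known targets of these factors. Whether the element goes with a lower level was not tested. The 3 called chaperones are given below 5′ to 3′ on the strand of the gene, ending at the last base before the start, with the element in capitals, for chr2:34771940-34772089 (plus strand) in Hspa5, chr10:86705445-86705694 (minus strand) in Hsp90b1 and chr8:84846932-84847131 (minus strand) in Calr.
Hspa5: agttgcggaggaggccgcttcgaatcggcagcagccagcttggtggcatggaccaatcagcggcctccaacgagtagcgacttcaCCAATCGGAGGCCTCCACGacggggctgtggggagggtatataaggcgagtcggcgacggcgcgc
Hsp90b1: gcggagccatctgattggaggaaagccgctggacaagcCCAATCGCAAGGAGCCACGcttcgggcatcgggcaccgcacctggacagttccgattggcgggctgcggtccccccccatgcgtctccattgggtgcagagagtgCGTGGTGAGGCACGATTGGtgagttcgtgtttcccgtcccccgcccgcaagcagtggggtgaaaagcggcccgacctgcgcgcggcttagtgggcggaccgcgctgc
Calr: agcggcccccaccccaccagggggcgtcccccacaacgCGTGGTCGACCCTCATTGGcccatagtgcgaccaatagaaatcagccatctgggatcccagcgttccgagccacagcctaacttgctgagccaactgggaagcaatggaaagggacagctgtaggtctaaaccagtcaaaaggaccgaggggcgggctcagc

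The other 3 motifs lay before the start in 1, 0 and 2 of the 30 members with a window, in the order below. Only these exact letters were searched, so a member without a match may still hold a variant of the site. The second form of the ER stress element, which is ATTGG, any base and CCACG, lay before the start in Herpud1 alone of the members, against 0.0370% of genes with a window, and after the start in Dnajb11. The UPR element, TGACGTGG, whose reverse complement begins with the letters CCACG of the ER stress element, was in no member window, against 0.603% of genes before the start. The composite site bound by ATF4 and its partners, TTGCATCA, lay before the start in Chac1 and Herpud1, against 0.918% of genes.

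The protein disulfide isomerases, which form and rearrange disulfide bonds in the lumen, had lower mean levels in MOC1 libraries and were not called. Pdia3, the isomerase that works with calreticulin and calnexin, averaged 453 ± 24.8 CPM in MOC1 against 521 ± 27.6 CPM in sham (log2 fold change -0.20 ± 0.06, edgeR adjusted p = 0.0659). Pdia4 averaged 66.0 ± 9.75 CPM in MOC1 against 83.3 ± 5.45 CPM in sham (-0.33 ± 0.11, adjusted p = 0.0851). Pdia6, which also restrains IRE1 and PERK, averaged 110.1 ± 18.04 CPM in MOC1 against 134 ± 12.5 CPM in sham (-0.29 ± 0.11, adjusted p = 0.148). Pdia3 passed the threshold without MOC1 female 2 (adjusted p = 0.0434) and with DESeq2 (0.00822), and Pdia4 without MOC1 female 3 (0.0403). Total-count scaling also brought Pdia3 past it (0.0384), and pan-neuronal scaling all 3 genes (0.000237 for Pdia3, 0.00192 for Pdia4 and 0.00372 for Pdia6). The 3 genes summed to 572 to 673 CPM in MOC1 and 686 to 768 CPM in sham libraries, without overlap.

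Of the 6 co-chaperones of BiP and secreted regulators, 5 lay below 0 and none was called under TMM scaling with the default filter. Dnajb9, also known as ERdj4, brings BiP to IRE1 and to degradation substrates, and had a log2 fold change of -0.43 ± 0.16 (edgeR adjusted p = 0.146). Dnajb11, or ERdj3, a co-chaperone that is also secreted, ranged over 38.2 to 51.7 CPM in MOC1 libraries, against 52.9 to 68.6 CPM in sham libraries. Those ranges did not overlap, although the adjusted p was 0.139 (log2 fold change -0.33 ± 0.12). Dnajc3, the inhibitor of PERK known as p58IPK, had -0.15 ± 0.08 and Sdf2l1, a partner of Dnajb11, had -0.49 ± 0.33, with means of 6.98 CPM in MOC1 and 9.99 CPM in sham. Creld2, a secreted ER stress protein, had -0.39 ± 0.33. Manf, a secreted factor that binds BiP and has trophic effects on neurons, was the one above 0, at 0.14 ± 0.15 (0.04 to 0.26 with 1 library left out), and turned to -0.14 under pan-neuronal scaling. That scaling called Dnajb9, Dnajb11 and Dnajc3 lower (adjusted p = 0.0146, 0.00537 and 0.0108), and Dnajb9 also passed without the low-count filter (0.0458).

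The genes of ER-associated degradation, which draws misfolded chains back into the cytosol for the proteasome, showed no called difference under TMM scaling. Their median log2 fold change was -0.01, and none of the 6 had an unadjusted p under 0.05. Herpud1, a scaffold of the degradation complex, averaged 53.4 ± 9.70 CPM in MOC1 against 47.3 ± 5.03 CPM in sham (0.20 ± 0.12, and -0.08 under pan-neuronal scaling). Sel1l, the adaptor of that complex, had -0.11 ± 0.08 and was called under pan-neuronal scaling (-0.39, adjusted p = 0.0133), and Syvn1, its ubiquitin ligase Hrd1, had -0.02 ± 0.16. Edem1, which selects substrates by their trimmed sugars, averaged 53.2 ± 9.17 CPM in MOC1 against 52.3 ± 9.11 CPM in sham. The channel-forming derlins Derl1 and Derl2 had -0.03 ± 0.12 and 0.16 ± 0.13, and Derl2 turned to -0.12 under pan-neuronal scaling. The 6 genes summed to 396 to 448 CPM in MOC1 and 392 to 461 CPM in sham libraries, which overlapped.

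The sensors themselves and Xbp1 were not called either. Xbp1 messenger RNA, spliced and unspliced together, had a lowest, median and highest level of 54.7, 70.6 and 76.0 CPM in MOC1 libraries, against 74.0, 66.4, 67.1, 76.9 and 65.2 CPM in sham libraries. The arms overlapped, and the log2 fold change was -0.05 ± 0.11 (edgeR adjusted p = 0.880), with a 95% interval of -0.26 to 0.16. Eif2ak3, which encodes PERK, had the highest log2 fold change among the 4 genes, 0.33 ± 0.14 (adjusted p = 0.182), with 68.3 ± 17.8 CPM in MOC1 and 54.5 ± 4.58 CPM in sham. MOC1 female 3, at 100.5 CPM, was the highest library, and without it the log2 fold change was 0.21. Atf6 had -0.13 ± 0.18 and was at 36.6 CPM in that same library, against 75.0 to 89.5 CPM in the other MOC1 libraries. Without that library its log2 fold change was 0.05. Ern1, which encodes IRE1, had 0.06 ± 0.20, and -0.22 under pan-neuronal scaling.

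The transcription factors of the integrated stress response were likewise not called under TMM scaling. Atf4, which is controlled mainly at translation, had a lowest, median and highest level of 133, 157 and 165 CPM in MOC1 libraries, against 174, 166, 173, 178 and 134 CPM in sham libraries. Sham male 3 lay far below the other sham libraries, and the arms overlapped through it alone. The log2 fold change was -0.11 ± 0.09 (edgeR adjusted p = 0.615, 95% interval -0.28 to 0.07). It ran from -0.18 without sham male 3 to -0.04 without sham male 1, and pan-neuronal scaling gave -0.39, past the threshold (adjusted p = 0.0227). Ddit3, which encodes CHOP, a factor linked to apoptosis under lasting stress, had 3.60, 9.60 and 12.1 CPM as lowest, median and highest in MOC1 libraries, against 10.8, 15.1, 18.4, 13.1 and 4.88 CPM in sham libraries. MOC1 female 3 and sham male 3 were the lowest of their arms, the arms overlapped, and the log2 fold change of -0.43 ± 0.35 had a 95% interval of -1.13 to 0.26 (adjusted p = 0.597). It was -0.70 without sham male 3 and -0.20 without MOC1 female 3. Atf5, a relative of Atf4 translated under the same conditions, had 0.10 ± 0.14 (0.01 to 0.18 with 1 library left out), and -0.17 under pan-neuronal scaling.

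Among the 7 effectors downstream of Atf4, 2 fell and the others ran in both directions. Ppp1r15a encodes GADD34, the stress-induced subunit that directs protein phosphatase 1 to eIF2 and so ends the translational block. It had a lowest, median and highest level of 55.7, 78.1 and 88.8 CPM in MOC1 libraries, against 193, 179.8, 153, 115 and 118 CPM in sham libraries. Every MOC1 library lay below every sham library, and the 3 female sham libraries lay above both male ones. With means of 76.4 ± 12.9 CPM in MOC1 and 152 ± 35.3 CPM in sham (SD, n = 6 and 5), the log2 fold change was -0.93 ± 0.12 (edgeR adjusted p = 4.57e-05), which corresponds to a fold of 0.525. Ppp1r15a is also inducible by stimulation and handling, and the immediate-early sum separated the arms in the same direction, 1555 ± 235 CPM in MOC1 and 3820 ± 860 CPM in sham. The part of that difference in the fall of Ppp1r15a was not tested. The 250 bases before the start of Ppp1r15a held no exact match to any of the 4 motifs. The last 150 of them (chr7:45526269-45526418, minus strand) are shown because Ppp1r15a is the member with the largest called difference.
Ppp1r15a: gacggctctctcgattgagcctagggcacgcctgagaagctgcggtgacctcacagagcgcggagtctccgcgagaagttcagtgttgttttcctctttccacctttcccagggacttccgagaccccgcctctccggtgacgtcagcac

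Ddit4 encodes REDD1, an inhibitor of the growth kinase mTORC1 that Atf4, hypoxia and glucocorticoids induce. Levels had a lowest, median and highest value of 27.0, 36.0 and 45.2 CPM in MOC1 libraries, against 48.9, 40.6, 41.5, 60.0 and 67.4 CPM in sham libraries. MOC1 female 3, at 45.2 CPM, exceeded sham female 2 and sham female 3, and both male sham libraries stood highest. The log2 fold change was -0.56 ± 0.16 (edgeR adjusted p = 0.0436). The call was lost without MOC1 female 1 or 2 (adjusted p = 0.0608 and 0.103), MOC1 male 1, 2 or 3 (0.0871, 0.0857 and 0.0809), sham female 1 (0.0712) or sham male 1 or 3 (0.108 and 0.160).

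Asns encodes asparagine synthetase, a classic target of Atf4 under amino acid shortage, and was the member with MOC1 above sham in every library. Its lowest, median and highest levels were 187, 198 and 205 CPM in MOC1 libraries, against 145, 159, 175, 172 and 178 CPM in sham libraries. The arms did not overlap, yet the log2 fold change of 0.24 ± 0.07 missed the threshold (edgeR adjusted p = 0.0573). It passed with DESeq2 (0.0144), without the sex term (0.0461), with a filter of 1 CPM in 5 libraries (0.0430) and without sham female 3 (0.0499), and turned to -0.03 under pan-neuronal scaling. Psat1, of serine synthesis, had -0.17 ± 0.13, and was called lower under pan-neuronal scaling (adjusted p = 0.0322). Sesn2, an inhibitor of mTORC1 signalling, had -0.90 ± 0.55, with 2.36 ± 0.898 CPM in MOC1 against 4.80 ± 2.29 CPM in sham. Trib3, a pseudokinase that restrains Atf4 signalling, and Chac1, an enzyme that degrades glutathione, were scarce, with 0 to 127 and 0 to 84 counts per library, and their SEs of 1.26 and 0.88 left no direction readable.

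Per kilobase of exon the members spanned a wide range, and the 5 highest were the same genes in both arms. The highest in sham was Pdia3, at 144 CPM per kilobase in MOC1 and 166 in sham, with Hsp90b1 (124 and 163), Canx (140.5 and 157), Hspa5 (114 and 157) and Calr (118 and 147) next. Pdia3, Canx, Hsp90b1 and Hspa5 differed in sham by less than the spread of Hspa5 between sham libraries, which had a coefficient of variation of 15.6%. A gap separated these 5 from Atf4 (64.5 and 70.0 CPM per kilobase), Asns (72.1 and 60.7) and Ppp1r15a (26.0 and 51.6). Ern1 (2.38 and 2.31), Sesn2, Trib3 and Chac1 were the lowest. The steadiest member within the MOC1 arm was Asns, with a coefficient of variation of 3.10%, and Canx was the steadiest in sham at 3.25%. Within the MOC1 arm, MOC1 female 3 was the lowest library for 12 of the 34 members and the highest for 15. Without MOC1 female 3, MOC1 male 2 and sham female 1, which stand apart as described above, 6 members were called lower, the same 5 and Pdia4, where 4.9% of all genes were called lower.

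**Figure D3:**
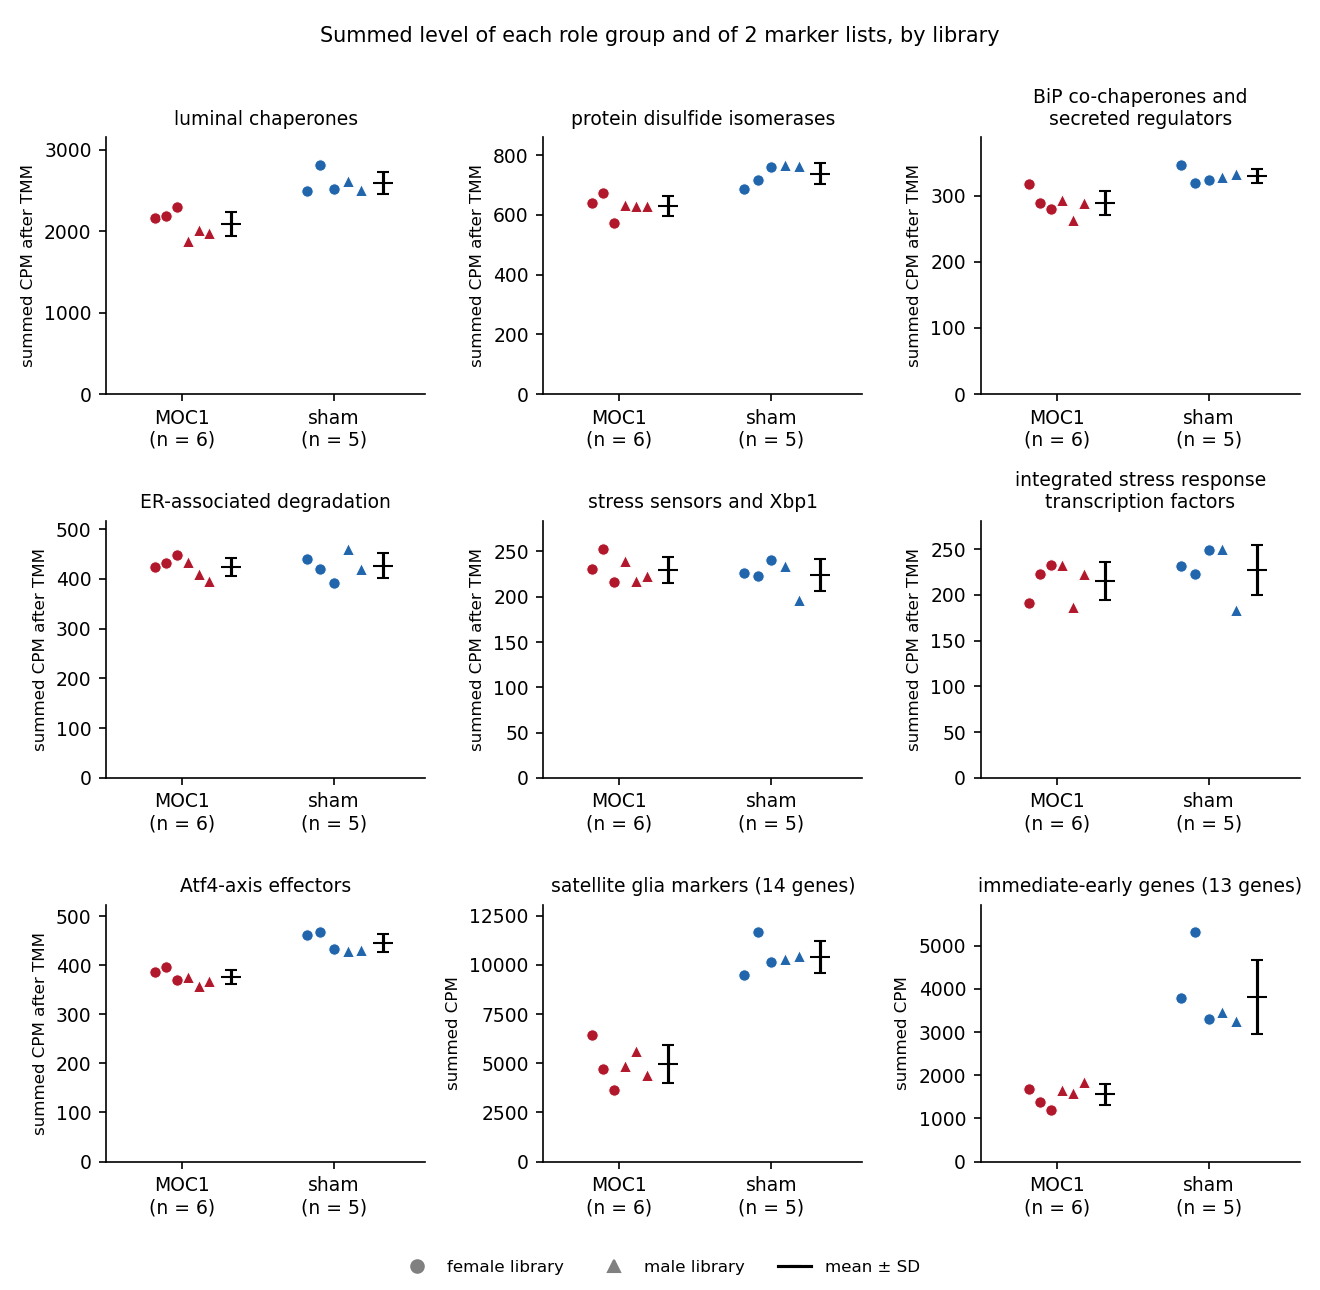
Summed CPM of each role group (after TMM) and of the satellite glia and immediate-early lists in each library (circles female, triangles male, MOC1 left of sham, black bars mean ± SD). The sums of luminal chaperones, disulfide isomerases, effectors of the Atf4 axis and, by less than 1 CPM, the BiP co-chaperones lie lower in every MOC1 library. So do the glial and immediate-early sums, while degradation genes, sensors and transcription factors overlap. Among the effectors, Ppp1r15a alone falls by more than the whole sum.

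Summed over all 34 members, MOC1 libraries held 4252 ± 175 CPM (4081 to 4454) and sham libraries 4983 ± 147 CPM (4833 to 5183), without overlap. The luminal chaperones made up 2089 ± 152 CPM of this in MOC1 and 2593 ± 133 CPM in sham. The co-chaperones and secreted regulators summed to 263 to 318 CPM in MOC1 and 319 to 347 CPM in sham libraries, with the highest MOC1 and the lowest sham library less than 1 CPM apart. The effectors summed to 357 to 396 CPM in MOC1 and 430 to 467 CPM in sham libraries, with means of 376 and 445 CPM. Ppp1r15a alone, at 76.4 CPM in MOC1 against 152 CPM in sham, fell by more than this sum. The effector sum therefore does not show a fall shared by the group. These sums carry no test, since the members were chosen with results of the data known, and the satellite glia sum differed between the same libraries by more, 4943 ± 966 CPM in MOC1 against 10399 ± 797 CPM in sham.

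Within each sex few members were called, and Ppp1r15a was called in both. In females 2 members fell, Ppp1r15a (log2 fold change -1.09 ± 0.15, edgeR adjusted p = 0.000412) and Hspa5 (-0.44 ± 0.11, adjusted p = 0.0222), where 3.15% of all genes were called lower and 1.33% higher. In males 4 members fell, Calr (-0.54 ± 0.10, adjusted p = 0.0106), Hsp90b1 (-0.48 ± 0.11, 0.0361), Ppp1r15a (-0.72 ± 0.16, 0.0372) and Ddit4 (-0.91 ± 0.22, 0.0498), where 1.09% of all genes were called lower and 0.166% higher. Ppp1r15a stood at 82.1 ± 11.2 CPM in MOC1 females against 175 ± 20.5 CPM in sham females, and at 70.6 ± 13.97 CPM in MOC1 males against 116 ± 1.66 CPM in sham males. Calr stood at 363 ± 36.1 CPM in MOC1 females against 397 ± 17.5 CPM in sham females, and at 320 ± 12.0 CPM in MOC1 males against 464 ± 13.6 CPM in sham males. Log2 fold changes lay below 0 in both sexes for 20 of the 34 members (58.8%), against 31.9% of all genes.

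The difference between the sexes itself was called for none of the members and none of the 16817 genes (0%) by the interaction term of edgeR, and for no member by DESeq2. An unadjusted p under 0.05 in edgeR's interaction test was reached by Calr (0.00825), Trib3 (0.0161), Manf (0.0322) and Ddit4 (0.0440), and by 708 genes in all (4.21%). The counts within a sex rested on single libraries. The shares of all genes called within a sex in those fits are not given here. Whether the members moved more than all genes therefore cannot be read from them. In females 1 member was called without MOC1 female 2, MOC1 female 3 or sham female 2, and 4 without MOC1 female 1. In males 1 was called without MOC1 male 1, 2 or 3, 2 without MOC1 female 2 or sham female 2, and 0 without sham male 1 or 3, where a lone sham male library is assumed to vary like the other groups.

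**Figure D4:**
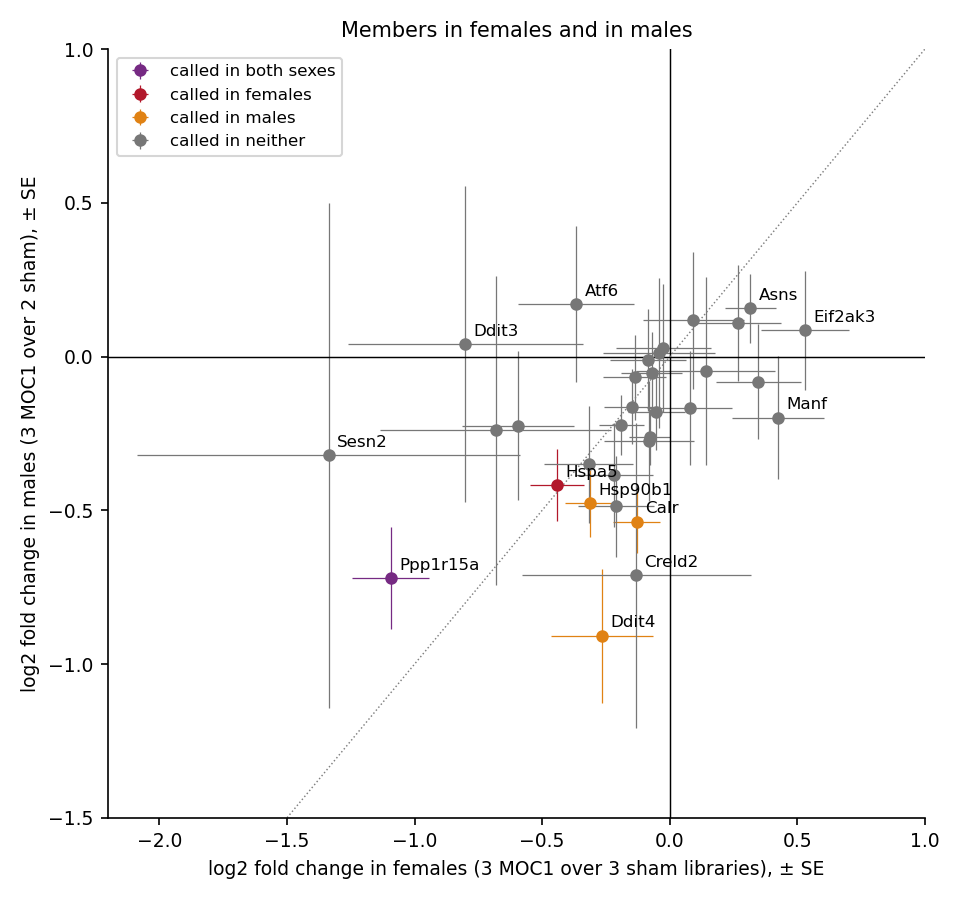
Log2 fold change of MOC1 over sham in females (horizontal, 3 MOC1 and 3 sham libraries) against males (vertical, 3 MOC1 and 2 sham libraries) for the members other than Trib3 and Chac1, whose SEs are too large for the axes, with SE as bars and a dotted line at equal values. Ppp1r15a is called in both sexes, Hspa5 in females, and Calr, Hsp90b1 and Ddit4 in males, and no member passes the test of the difference between the sexes.

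Outside the 34 members, 112 further genes of the same pathways were listed and 109 were tested, with 7 lower (6.42%) and 2 higher (1.83%) in MOC1 and a median log2 fold change of -0.05. These shares stand beside 4.28% lower and 2.34% higher over all genes. The 16 other folding enzymes and chaperones, the 16 genes of ER import and signal peptide cleavage, the 18 other degradation genes tested and the 15 genes of eIF2, its kinases and its exchange factor held no call. Their medians were -0.11, -0.11, -0.02 and 0.04.

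The other lower genes were 2 transcription factors and 5 targets of Atf4. The 12 other sensors, proteases and transcription factors had a median log2 fold change of -0.13. Atf3, a stress factor induced by Atf4 and also by axon injury and by handling, had a lowest, median and highest level of 42.9, 61.9 and 76.2 CPM in MOC1 libraries, against 132, 149, 110.0, 123 and 87.8 CPM in sham libraries. The arms did not overlap, and the log2 fold change was -1.01 ± 0.14 (edgeR adjusted p = 0.000162). Creb3l2, a relative of ATF6 that is cut in the same way, had -0.56 ± 0.16 (adjusted p = 0.0464), and its call was lost without any one of 8 libraries (adjusted p up to 0.121). Of the 20 other targets of Atf4 tested, 5 fell (25%), none rose and 17 lay below 0, with a median of -0.40. Over all genes 4.28% were called lower, 2.34% higher, and 52.7% lay below 0.

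Phgdh, the first enzyme of serine synthesis, ranged over 5.08 to 23.5 CPM in MOC1 libraries, against 30.4 to 48.9 CPM in sham libraries, without overlap (log2 fold change -1.38 ± 0.28, edgeR adjusted p = 0.00405). The neutral amino acid transporters Slc1a4 and Slc1a5 had -0.44 ± 0.10 (adjusted p = 0.0102) and -0.83 ± 0.20 (0.0126). The alanine transaminase Gpt2 and the angiogenic factor Vegfa had -0.57 ± 0.14 (0.0152) and -0.55 ± 0.14 (0.0174), and Vegfa missed the threshold without sham female 2 (0.0572) or sham female 3 (0.0505). With the satellite glia sum as a covariate, which separates the arms completely, no gene at all was called, so the loss of these calls is not informative. The log2 fold changes of the 5 lay between 0.03 and 1.10 in that fit. Their adjusted p-values there, by edgeR, ran from 0.725 for Phgdh to 0.988 for Vegfa, and no direction was readable. The aminoacyl-tRNA synthetases, which charge transfer RNAs and are a further set of Atf4 targets, ran the other way under TMM scaling. Of the 12, 11 lay above 0 and 2 were called higher (16.7%, against 2.34% of all genes), with a median of 0.18. Their median was not taken under pan-neuronal scaling, which moved that of all genes from -0.03 to -0.31.

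Iars, the isoleucine enzyme, ranged over 136 to 173 CPM in MOC1 libraries, against 111 to 119 CPM in sham libraries (0.45 ± 0.08, edgeR adjusted p = 0.00181), and had 0.17 under pan-neuronal scaling, where it was not called. Gars, the glycine enzyme, ranged over 308 to 337 CPM in MOC1 libraries, against 258 to 288 CPM in sham libraries (0.23 ± 0.06, adjusted p = 0.0342), and turned to -0.04 under pan-neuronal scaling. Neither pair of ranges overlapped. The call of Gars was lost without any one of 8 libraries (adjusted p up to 0.0972), while Iars was called whichever library was left out. No test compared the synthetases with the other targets of Atf4.

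**Figure D5:**
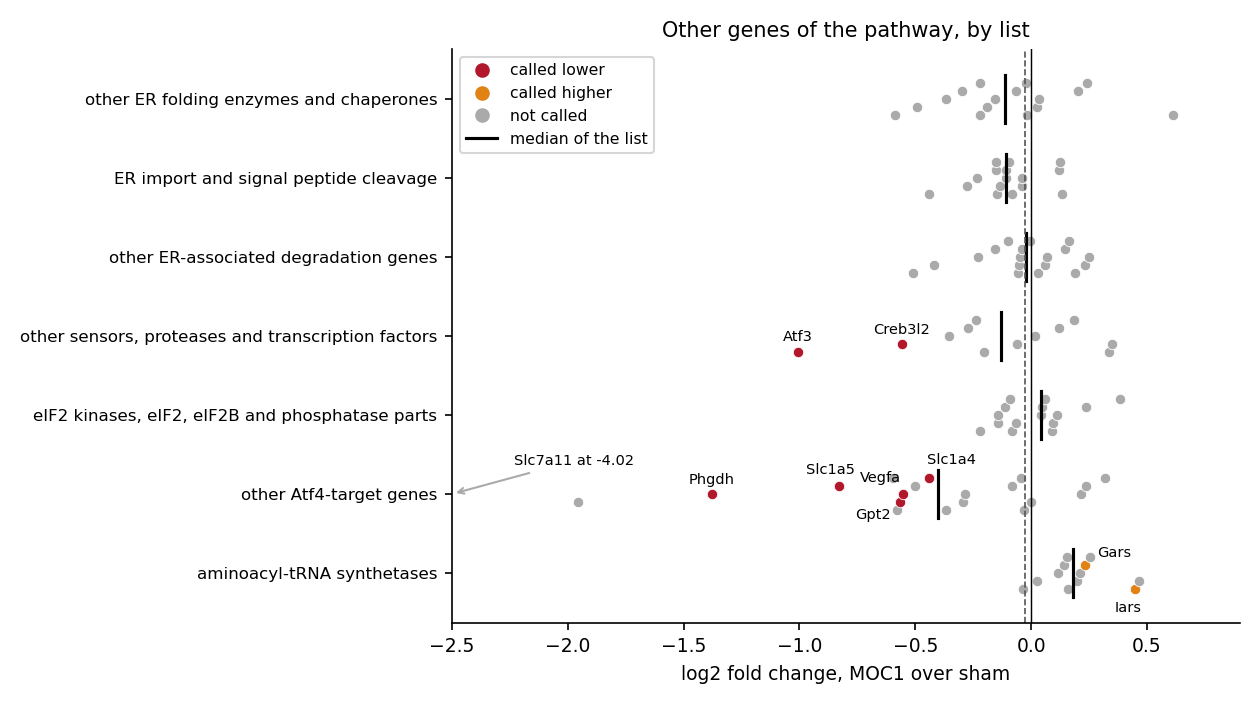
Log2 fold change of MOC1 over sham for 109 further genes of the pathways by list (each point a gene, black bars the list medians, dashed line the median of all genes, TMM scaling). Lower calls sit among transcription factors and Atf4 targets and the 2 higher calls among the aminoacyl-tRNA synthetases, of which Gars lies at -0.04 under pan-neuronal scaling; Slc7a11, not called, lies off the scale at -4.02.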

How the data were processed

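RNA of DiI-positive trigeminal neurons was measured in 11 libraries, 6 MOC1 and 5 sham, in 4 groups by arm and sex. The deposited values are strand-specific read counts per gene. Reads were trimmed with Trimmomatic 0.35, aligned to GRCm38 (mm10) with STAR 2.7.1a and counted with STAR, per the submitters' processing notes, which also name RSEM and, for the authors' own comparison, DESeq2. Which annotation release was used is not given in the sources, and 54349 of the 55401 gene IDs match GENCODE M21 with their version. Each file opens with 4 totals for reads in no single gene, which held 18.7 to 21.5% of each library and were left out.

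The counts were tested with edgeR 4.0.16 (R 4.3.3). The default expression filter over the 4 groups kept 16817 genes, libraries were scaled by TMM, and the quasi-likelihood F test was run with sex as an additive term. A 4-group fit gave the contrasts within each sex and the interaction. P-values were adjusted by Benjamini-Hochberg over all genes kept, at a threshold of 0.05. SEs are the log2 fold change divided by the square root of F, and 95% intervals are normal approximations from them. Levels of members are CPM after TMM, marker sums are CPM without TMM, and levels per kilobase use exons merged per gene. Marker sums and library measures were tested by exact permutation, two-sided, over the 462 regroupings of 6 against 5. Libraries of the same group differed by a chi-square of 13.3 to 39.6 per degree of freedom, so none was taken as a duplicate. The test was also run on counts simulated with set fold changes and with no glial or sex difference put in. The outcome is not given here.

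The members, the lists and the alternatives were chosen with earlier results of these data known. All 34 members are accounted for. Values in every library are given for called members and for Xbp1, Atf4 and Ddit3, and of the other pathway genes the called ones are named, at most 4 per list and direction by p. Vegfa, Slc7a11, and the values by library of Asns and Dnajb11 were added after their values were seen. Alternatives were DESeq2 1.42.0 with and without sex, DESeq2 size factors, total-count and pan-neuronal scaling, other low-count filters, no sex term, a satellite glia covariate, the replicate number as a block, and libraries left out. Promoter windows are from RefSeq on GRCm38.p6. The sources name no molecular identifiers.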

Additional observations from a re-analysis of the deposited data

Results flagged for a closer look

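In 5 of the 68 sets made by a member and an arm, 1 library stood apart from the others of its arm by Dixon's criterion, a gap to the nearest library that is large relative to the whole range. Chance alone marks about 5% of such sets. Within MOC1, female 3 had 88.27 CPM of Derl1, a channel protein of ER degradation, against 62.1 to 71.9 CPM in the other MOC1 libraries. The same library had 36.56 CPM of the sensor Atf6, against 75.0 to 89.5 CPM. Within sham, female 2 had 775.7 CPM of the chaperone Hsp90b1, against 599 to 641 CPM in the other sham libraries, and female 3 had 62.42 CPM of Eif2ak3, the gene of PERK, against 51.1 to 53.8 CPM. Sham male 3 had 133.8 CPM of Atf4, against 166 to 178 CPM. Hsp90b1 was called lower in MOC1 whichever library was left out, and the other 4 genes were not called with all libraries.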

How the results depend on the processing

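Depth limits Trib3, Chac1 and Sesn2, and 5 sham libraries, 2 of them male, limit the precision for all members. No called member turned sign under an alternative other than leaving out 1 library, though no direction is read from the satellite glia fit. Of the 374 comparisons of a member with such an alternative, 315 kept direction and side of the threshold. Another 5 lost the call, 20 gained one and 34 turned sign. With 1 library left out, 334 of 374 kept both, 14 lost the call, 3 gained one and 23 turned sign. The cause was not tested for any of the changes given here.

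With pan-neuronal scaling 16 members were lower and 13 were called in females, all of them lower, and 28 other pathway genes were lower and 0 higher, where 12.4% of all genes were lower and 0.161% higher, and in females 11.5% lower and 0.0654% higher. With the satellite glia covariate 0 members were lower, 0 called in females and 0 in males, and 0 other pathway genes were called in either direction. Of all 16817 genes 0 were called lower and 0 higher there, with both sexes together. DESeq2 called 1 member higher (Asns, also without the sex term, and in edgeR without the sex term or with 1 CPM in 5 libraries) and 4 in females. Of all 16817 genes DESeq2 called 908 lower and 648 higher, against 719 and 394 in the main fit. In edgeR 774 were lower and 422 higher without the sex term, and 724 and 439 of 13993 with 1 CPM in 5 libraries. Without the low-count filter 4 members were called in females and 1 other pathway gene was higher, as 1 was with total-count scaling and 1 without the 3 libraries that stand apart. Among all genes 1010 of 24535 were lower and 563 higher without the filter, and 760 and 316 of 16817 with total-count scaling. Without those 3 libraries 798 of 16301 were lower and 447 higher. Leaving out each library in turn gave 3 to 6 members lower, 0 to 1 higher, 1 to 4 called in females and 0 to 4 in males, with 5 to 8 other pathway genes lower and 1 to 2 higher. The interaction called 0 members under each alternative. Shares of all genes called within a sex are given here only for the main fit and, in females, for pan-neuronal scaling. The other counts within a sex cannot be set against such a share.

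The replicate numbers were not taken as pairs, and deviations of same-numbered libraries from their group means correlated between -0.04 and 0.04. Such deviations are tied within groups this small, and in males the 2 sham libraries give mirrored values. The correlations therefore cannot exclude a shared collection. With the replicate block 5 members were lower, 2 were called in females and 2 in males (Calr and Hsp90b1), and 8 other pathway genes were lower and 2 higher. Of all 16817 genes 731 were lower and 359 higher with it, both sexes together, and the shares within a sex are not given here. Under the block Syvn1 stood at 0.0039 and Edem1 at 0.012.

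These log2 fold changes turned sign. With the satellite glia covariate they were 0.012 for Hyou1, 0.39 for Pdia6, 0.62 for Dnajb9, 0.11 for Sdf2l1, -0.31 for Manf, 0.29 for Sel1l, -0.32 for Derl2, 0.70 for Atf6, -0.033 for Ern1, -0.38 for Eif2ak3, 0.17 for Xbp1, -0.68 for Atf5, 0.50 for Ddit3, 0.77 for Trib3, 0.39 for Psat1, 1.10 for Phgdh, 0.061 for Slc1a4, 0.39 for Slc1a5, 0.23 for Gpt2 and 0.033 for Vegfa. With pan-neuronal scaling they were -0.14 for Manf, -0.083 for Herpud1, -0.12 for Derl2, -0.22 for Ern1, -0.17 for Atf5, -0.030 for Asns and -0.044 for Gars. Without the 3 libraries that stand apart they were 0.023 for Hyou1, 0.043 for Atf6, -0.033 for Ern1, 0.083 for Xbp1 and 0.36 for Trib3. Edem1 stood at 0.0024 with DESeq2 and with its size factors, 0.027 with DESeq2 without the sex term, 0.0046 without the filter, 0.0043 with 1 CPM in 5 libraries and 0.025 without the sex term. With 1 library left out the values ran from -0.12 to 0.059 for Syvn1, -0.11 to 0.10 for Edem1, -0.13 to 0.047 for Derl1, -0.27 to 0.0501 for Atf6, -0.042 to 0.15 for Ern1, -0.10 to 0.0090 for Xbp1 and -1.54 to 0.19 for Trib3. Over the whole promoter window, bases after the start included, the ER stress element was in 37 genes (0.137%) and the same 8 members, the second form in 0.0444% of genes, the UPR element in 0.714% and the composite site in 1.03%.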
